A study of Saccharomyces cerevisiae with 22 samples.

Results

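The response of budding yeast to 15 min of cooling was measured on 4 of the 22 arrays of this series. The wild-type strain BY4742, a haploid laboratory strain of mating type alpha, had been grown at 37 °C in synthetic complete medium with 2% glucose, spun down and taken up in medium at 30 °C. The group at 15 min of cooling (2 arrays) was compared with the group at time 0 (2 arrays), and all 5311 genes with a symbol on the array were included. The neighbouring groups at 5 and 30 min after the shift (2 arrays each), and the group at 15 min of the opposite shift, from 30 °C to 37 °C (2 arrays), were used to place the 15 min values in time. All groups carry the same genotype, and every sample was hybridised together with a common reference, RNA from a large single culture of untreated BY4742. Array a carried the sample in Cy3 and array b carried it in Cy5, so that the dye effect cancels in the mean of a group. Below, a level is a log2 ratio of sample over common reference, and a change is a log2 difference between 2 groups. The samples that were cooled had also been pelleted and re-suspended. Whether the time 0 sample was handled in the same way is not given in the sources used here, so that cooling and handling cannot be told apart.

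When the temperature of a yeast culture changes, a pair of gene programmes is known to move. The heat shock factor Hsf1 drives chaperones, proteins that refold or disaggregate other proteins, and the related activators Msn2 and Msn4 drive a general stress programme that includes trehalose synthesis, alternative sugar kinases and antioxidant enzymes. In the opposite sense move the genes for making ribosomes, which a growing cell needs in bulk: RNA polymerases I and III, the processing factors of the nucleolus and the ribosomal proteins. Cells at 37 °C are within the range of mild heat stress, and 30 °C is close to the preferred growth temperature of this species.

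On the 4 arrays between 92.4% and 95.7% of gene spots were above background, and the arrays' median intensities were 209.8 to 353.5 for Cy5 and 196 to 346.7 for Cy3. The 15 min changes on array a and on array b correlated at r = 0.966, over genes that are not independent of each other, and differed by 0.08 in the median gene. The strain's markers did not separate by the background limit, although those of mating type did by signal. On the 4 arrays, in either channel, the highest signal of a gene was 2310 to 16000 for alpha-specific genes and 73.55 to 210.6 for a-specific genes. The 4 measured genes that only alpha cells use, MF(ALPHA)1, MF(ALPHA)2, STE3 and SAG1, were above background on all 22 arrays, but so were 6 of the 7 genes specific to a cells (MFA1, STE2, STE6, BAR1, AGA2 and ASG7), and the other one, MFA2, was above it on 20. Of 4 marker genes that are deleted or mutated in this strain background, URA3 was above background on 1 and LEU2 on 6 of the 22 arrays, whereas HIS3 and LYS2, with highest signals of 347.2 and 151.2, were above it on all 22.

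After 15 min at 30 °C, 142 of 5311 genes (2.67%) were higher and 292 (5.5%) were lower than at time 0 (8.17% in all), at an adjusted p below 0.05 in limma's test and more than 1.7-fold. The falls were both more frequent and larger than the rises. Of those called lower, 160 changed more than 2-fold and 39 more than 4-fold. Of those called higher, 47 changed more than 2-fold, and MDH2 alone more than 4-fold. The median change of all genes was -0.002 and the median standard error 0.0512. Since each sample is a bulk extract, a change in the share of cells at a given stage and a change of RNA per cell cannot be told apart.

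The 2 largest falls were in chaperone genes of the heat shock factor. HSP78, the mitochondrial disaggregase, was at -2.66 and -2.79 on the 2 arrays at 15 min, against 1.62 and 1.83 at time 0. HSP104, its cytosolic counterpart, was at -2.62 and -2.94 at 15 min, against 1.60 and 1.62 at time 0. In both genes the 37 °C culture lay well above the common reference and the cooled culture well below it. The groups did not overlap, as in 2105 of all 5311 genes in this direction. HSP78 fell by 4.45 (standard error 0.102, adjusted p = 4.23e-14), or 21.9-fold, and HSP104 fell by 4.39 (standard error 0.0974, adjusted p = 3.78e-14), or 21.0-fold, in limma's test.

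Of 27 measured Hsf1 chaperone genes 20 were lower and 0 higher, with a median change of -1.95. Among the largest falls were those of SIS1, an Hsp40 co-chaperone (-2.87), STI1, which links Hsp70 to Hsp90 (-2.86), and AHA1, an activator of the Hsp90 ATPase (-2.75). The Hsp90 genes themselves, HSP82 (-2.24) and HSC82 (-2.14), fell as well, as did HSP60, the mitochondrial chaperonin (-2.53). HSP82 and HSC82 are close copies, so that their probes may share signal. HSP26, a small heat shock protein, was still above the reference at 15 min, at 0.62 and 0.77, against 2.77 and 3.05 at time 0, and fell by 2.21. SSA4, the inducible Hsp70, was at -0.27 and -0.39 at 15 min, against 1.52 and 1.73 at time 0, and fell by 1.96. The median of the list over the reference was -1.03 and -0.995 on the arrays at 15 min, against 0.57 and 0.65 at time 0. The list was not uniform. CUR1, FES1, SBA1, SSA3, APJ1, MGE1 and SSE1 were not called, and SSE1, an Hsp110 nucleotide exchange factor, was at 0.35. In the lumen of the endoplasmic reticulum 2 of 23 folding genes were lower and 0 higher (median -0.25), beside 5.5% lower among all genes. The 2 were KAR2, the Hsp70 of that compartment (-2.65), and ERO1, its thiol oxidase (-1.08).

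Most general stress genes fell. Of 44 measured genes 34 were lower and 0 higher, with a median change of -1.18, and all 44 fitted changes were below 0. Among all genes 5.5% were lower and 2.67% higher, and 2670 of 5311 fitted changes were below 0. GPD1, glycerol 3-phosphate dehydrogenase, which makes the cell's osmolyte glycerol, was at -3.08 and -3.27 at 15 min, against 0.90 and 0.74 at time 0. It fell by 3.996 (standard error 0.0863, adjusted p = 3.78e-14). PNC1, a nicotinamidase, was at -2.23 and -2.29 at 15 min, against 1.26 and 1.18 at time 0, and fell by 3.48. YRO2, a plasma membrane protein of the Hsp30 family that was on none of the lists, was at -1.59 and -1.52 at 15 min, against 2.08 and 2.28 at time 0, and fell by 3.73. It had the highest time 0 level among the 15 genes that fell most. TFS1, an inhibitor of carboxypeptidase Y (-3.20), RTC3 (-2.77), HSP12, a membrane-associated stress protein (-1.71), and CTT1, the cytosolic catalase (-1.53), also fell. MBF1, a transcriptional coactivator that was on none of the lists either, fell by 2.78. Not called were 10 members, among them ALD3 at -0.75 and MSN4, itself a regulator of the programme, at -0.48.

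Genes of storage sugars fell too. Of 20 genes of trehalose and glycogen metabolism 14 were lower and 0 higher (median -1.10), beside 5.5% lower and 2.67% higher among all genes. TSL1, a regulatory subunit of trehalose synthase, was at -1.41 and -1.52 at 15 min, against 1.57 and 1.72 at time 0. It fell by 3.11, with TPS1 and TPS2, the catalytic subunits, at -2.08 and -1.89. PGM2, the main phosphoglucomutase, which feeds both pathways (-2.49), and GSY2, glycogen synthase (-2.43), were lower. Enzymes of breakdown fell as well: GPH1, glycogen phosphorylase, was at -2.24 and the trehalases NTH1 and ATH1 at -1.115 and -1.32. Several genes stand on both this list and that of general stress genes.

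**Figure D1:**
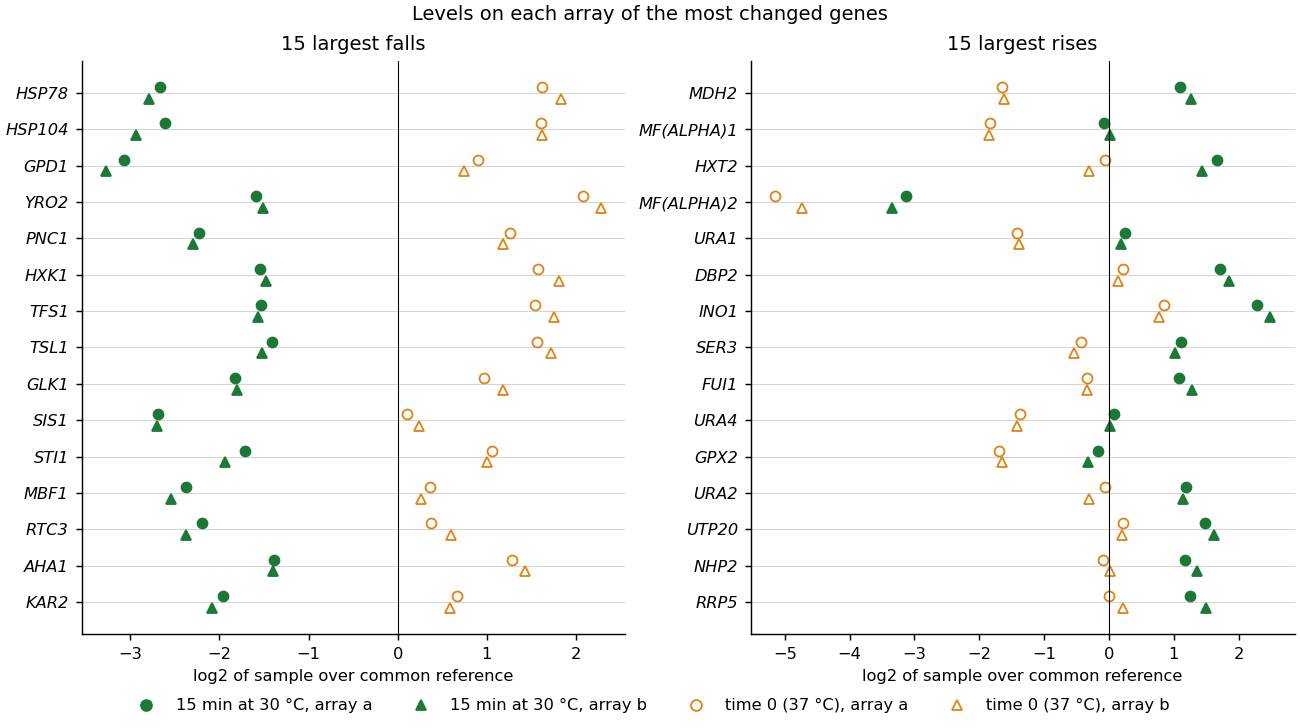
Level of each gene on each array, as log2 of sample over common reference (horizontal axis), for the 15 largest falls (left) and the 15 largest rises (right) at 15 min of cooling. Filled green points are 15 min and open orange points time 0, circles array a and triangles array b. The genes were chosen for large changes on these arrays. No gene shown has overlapping groups, which also holds for 2047 (higher) and 2105 (lower) of all 5311 genes. All 15 genes that fell were above the reference at time 0 and below it at 15 min.

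At the entry of glucose into glycolysis the genes of 2 sugar kinases fell. HXK1, the hexokinase that is used on poor carbon sources, was at -1.54 and -1.48 at 15 min, against 1.58 and 1.81 at time 0, and fell by 3.20. GLK1, glucokinase, was at -1.82 and -1.81 at 15 min, against 0.97 and 1.18 at time 0, and fell by 2.89. Of 25 genes of glycolysis and fermentation 12 were lower and 0 higher (median -0.75), beside 5.5% lower and 2.67% higher among all genes. ADH3, the mitochondrial alcohol dehydrogenase (-1.33), and PGK1, phosphoglycerate kinase (-1.23), fell, whereas CDC19, the main pyruvate kinase, was not called at -0.41. The count of this list depended on the curve fitted within each array. It was 5 with median centring in place of a curve (list median -0.275) and 4 with a curve on external control spots (list median -0.21). HXK1 and GLK1 were called in both.

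Many genes for assembling ribosomes rose in the same samples. Of 132 measured ribosome biogenesis genes 62 were higher and 0 lower, with a median change of 0.75, and all 132 fitted changes were above 0. Among all genes 2.67% were higher and 5.5% lower, and 2641 of 5311 fitted changes were above 0. DBP2, a DEAD-box RNA helicase, was at 1.71 and 1.86 at 15 min, against 0.22 and 0.15 at time 0. UTP20, a component of the small subunit processome, was at 1.48 and 1.63 at 15 min, against 0.22 and 0.20 at time 0. RRP5, which acts in processing of both subunits, was at 1.25 and 1.498 at 15 min, against 0.01 and 0.22 at time 0. In these genes time 0 was near the reference, unlike in the chaperones, and the cooled cells lay above it. DBP2 rose by 1.60 (standard error 0.0932, adjusted p = 7.81e-10), UTP20 by 1.35 (standard error 0.0646, adjusted p = 8.95e-11), NHP2, a core protein of H/ACA small nucleolar particles, by 1.31, RRP5 by 1.26 and NSR1, the yeast nucleolin, by 1.16. The list median over the reference was 0.78 and 0.75 at 15 min, against 0.05 and 0.01 at time 0. The smallest change of the list was 0.23, in ESF1.

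Fewer members were called in the other lists of the translation machinery, to be set beside 2.67% higher and 5.5% lower among all genes. Of 38 genes of RNA polymerases I and III 4 were higher and 0 lower (median 0.38). RPA135, the second largest subunit of RNA polymerase I, rose by 1.11, RPO26, a subunit shared by all 3 nuclear polymerases, by 0.89 and RPO31, the largest subunit of RNA polymerase III, by 0.83. With median centring RPO26 (0.749) and RPO31 (0.74) were not called, and RPO31 was also not called with a curve on external control spots (0.74) or without array b of 15 min (0.75). Of 57 translation factors and tRNA synthetases 5 were higher and 0 lower (median 0.28), such as TIF3, initiation factor eIF4B, at 1.01, NIP1, a subunit of eIF3, at 0.95, and ALA1, alanyl-tRNA synthetase, at 0.92. None of the 125 measured genes for cytosolic ribosomal proteins was called (0 higher and 0 lower, median 0.17), with RPL16A at 0.63 and RPS30A at 0.61 the furthest from 0. The values of ribosomal proteins also depended on the within-array curve. With median centring its median was 0.59 and 4 were called higher, and with a curve on external control spots 0.68 and 20. For translation factors the same settings gave 10 and 13 called higher. The median of ribosome biogenesis genes lay between 0.69 and 0.77 under all 5 scalings. Among 21 karyopherins, the carriers of nuclear transport, 1 was higher and 0 lower (median 0.03). It was KAP123, an importer of ribosomal proteins, at 0.84, which was not called with the deposited log2 ratios (0.66).

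**Figure D2:**
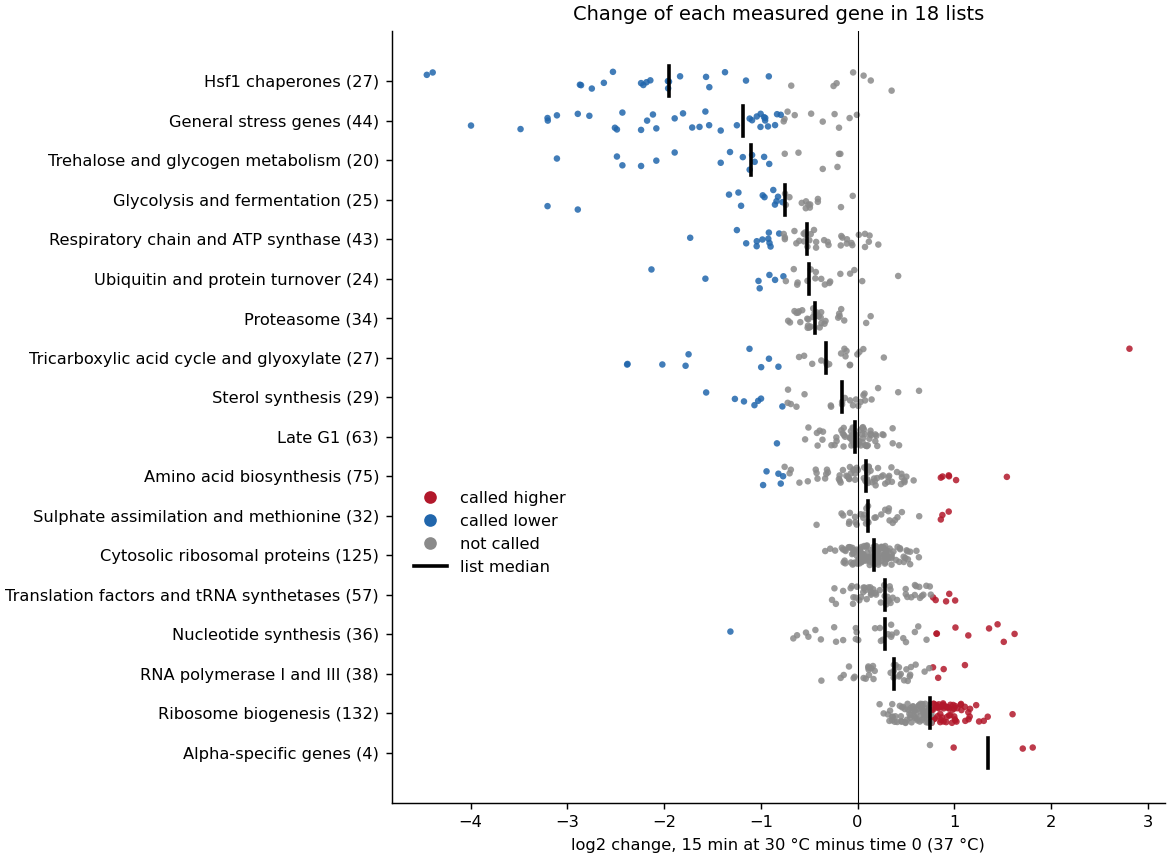
Change from time 0 to 15 min of cooling (log2, horizontal axis) of each measured gene in 18 of the 35 lists, with the number of genes in brackets. Points are genes, red if called higher, blue if called lower and grey if not called, and the bar is the list median; the medians run from -1.95 for the Hsf1 chaperones to 0.75 for ribosome biogenesis and 1.35 for the 4 alpha-specific genes.

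The largest rise was in a gene of central carbon metabolism. MDH2, cytosolic malate dehydrogenase, an enzyme of gluconeogenesis and the glyoxylate cycle, was at 1.09 and 1.27 at 15 min, against -1.64 and -1.61 at time 0. It rose by 2.81 (standard error 0.0573, adjusted p = 3.22e-14), or 7.02-fold. It was the 1 gene called higher among 27 of the tricarboxylic acid and glyoxylate cycles, of which 9 were lower (median -0.33). These counts, and those of the 2 lists below, are to be set beside 2.67% higher and 5.5% lower among all genes. IDH2, a subunit of NAD-dependent isocitrate dehydrogenase, was at -2.27 and -2.45 at 15 min, against 0.05 and -0.01 at time 0. CIT1, citrate synthase, was at -2.28 and -2.37 at 15 min, against 0.03 and 0.07 at time 0. Both genes were at the level of the reference in the 37 °C culture and had a change of -2.38 each. ACO1, aconitase, was at -2.73 and -2.83 at 15 min, against -0.73 and -0.80 at time 0, and so below the reference in both groups. It fell by 2.02. Of 43 genes for respiratory complexes and ATP synthase 11 were lower and 0 higher (median -0.52), such as STF1, which stabilises the inhibited ATP synthase (-1.73), CYC1, iso-1-cytochrome c (-1.25), and SDH1, of succinate dehydrogenase (-1.15). Among 72 mitochondrial ribosomal protein genes MRP8 alone was called, at -1.61 (list median -0.18), and its place in that ribosome was proposed from its sequence.

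Among biosynthetic genes several of the pyrimidine pathway rose. Of 36 genes of nucleotide synthesis and uptake 8 were higher and 1 lower (median 0.29), beside 2.67% higher and 5.5% lower among all genes. URA1, dihydroorotate dehydrogenase, was at 0.25 and 0.19 at 15 min, against -1.42 and -1.39 at time 0. URA4, dihydroorotase, was at 0.08 and 0.02 at 15 min, against -1.38 and -1.42 at time 0. URA1 and URA4 were thus below the reference at 37 °C and close to it after cooling. URA1 rose by 1.62 and URA4 by 1.45. URA2, the enzyme of the first steps of the pathway, was at 1.19 and 1.15 at 15 min, against -0.07 and -0.31 at time 0, a rise of 1.36. The uridine permease gene FUI1 rose by 1.51 and the uracil permease gene FUR4 by 1.15. YNK1, nucleoside diphosphate kinase, fell by 1.31.

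Of 75 genes of amino acid synthesis 6 were higher and 5 lower (median 0.09), beside 2.67% higher and 5.5% lower among all genes. With a curve on external control spots 3 were lower, and at more than 2-fold 2 were higher and 0 lower. SER3, which starts serine synthesis, was at 1.11 and 1.01 at 15 min, against -0.43 and -0.53 at time 0, and rose by 1.54. BAT1, the mitochondrial branched-chain aminotransferase, rose by 1.02 and HIS4, a multifunctional enzyme of histidine synthesis, by 0.95. LYS12, of lysine synthesis (-0.98), ARG1, argininosuccinate synthetase (-0.94), and CPA1, a subunit of carbamoyl phosphate synthetase (-0.82), fell. With a curve on external control spots LYS12 (-0.67) and ARG1 (-0.74) were not called, nor was LYS12 with median centring (-0.749), and CPA1 was not called without array b of time 0 (-0.68) or array a of 15 min (-0.76). Of 32 genes of sulphate assimilation and methionine 3 were higher and 0 lower (median 0.11). They were the S-adenosylmethionine synthetase genes SAM1 (0.94) and SAM2 (0.86), close copies whose probes may share signal, and the methionine permease gene MUP1 (0.88, and 0.72 and not called with median centring). MET6, methionine synthase, was not called at 0.46, and none of 6 biotin genes was called, with BIO2 at 0.40 and BIO3 at -0.28.

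Of 28 genes of fatty acids, phospholipids and sphingolipids 4 were higher and 3 lower (median 0.10), beside 2.67% higher and 5.5% lower among all genes. INO1, which makes inositol, was at 2.28 and 2.48 at 15 min, against 0.86 and 0.78 at time 0, and rose by 1.57. FAS1, a subunit of fatty acid synthase, was at 1.07 and 1.06 at 15 min, against -0.19 and -0.17 at time 0, and rose by 1.24. OLE1, the fatty acid desaturase of yeast, which makes the unsaturated chains that keep membranes fluid, was at 1.31 and 1.47 at 15 min, against 0.39 and 0.31 at time 0, and rose by 1.04. ACC1, acetyl-CoA carboxylase, rose by 0.89. FAA1, an acyl-CoA synthetase for imported fatty acids (-2.13), YDC1, a ceramidase (-1.22), and RSB1, a transporter of sphingoid bases (-0.80), fell, RSB1 not with normexp background correction (-0.76). Of 29 sterol genes 7 were lower and 0 higher (median -0.16), among them ERG5 at -1.56, ERG25 at -1.27 and ERG3 at -1.17, which act in late steps of ergosterol synthesis.

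At the cell surface 5 of 27 cell wall genes were lower and 0 higher (median -0.03), beside 5.5% lower and 2.67% higher among all genes. The 5 included CWP1, a mannoprotein of the wall (-2.05), PST1, also on the list of genes of the M/G1 transition (-1.88), and SED1, a structural wall protein (-1.38). SED1 was at -0.48 with median centring and at -0.39 with a curve on external control spots, not called in either. The count of cell wall genes called lower was 3 in each of these settings. Among 15 wall proteins known for low temperature or lack of oxygen none was called. TIP1, named for its induction by temperature shock, was at -0.61 and TIR1 at -0.32, and both were close to 0 with a curve on external control spots (0.05 and 0.02). Of 21 hexose transport genes HXT2, a high-affinity glucose transporter, and MIG2, a repressor of glucose-repressed genes, were higher and 0 were lower (median 0.06). HXT2 was at 1.67 and 1.43 at 15 min, against -0.07 and -0.30 at time 0, and rose by 1.74, and MIG2 rose by 1.003. Hexose transporter genes resemble each other closely, so that probes may share signal.

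None of 34 proteasome genes was called, while 32 of their fitted changes were below 0 and the median was -0.44, with SCL1 at -0.72 and RPN6 at -0.70. Over all genes 2670 of 5311 fitted changes were below 0. Of 24 other genes of ubiquitin and vacuolar turnover 7 were lower and 0 higher (median -0.50), such as the vacuolar proteases APE1 (-2.13) and PRB1 (-1.57) and the ubiquitin conjugase UBC4 (-1.02). Among all genes 5.5% were lower and 2.67% higher, to be set beside the small counts of the lists that follow. Of 32 redox genes 4 were lower and 1 higher (median -0.31). GPX2, a glutathione peroxidase, was at -0.16 and -0.33 at 15 min, against -1.70 and -1.66 at time 0. It rose by 1.43, against the direction of the glutaredoxins GRX2 (-1.17) and GRX1 (-1.15). Of 20 phosphate genes 3 were lower and 1 higher (median 0.11), with PHM8 at -2.22, PHO3 at -1.68 and PHO12 at -1.13. The low-affinity phosphate transporter gene PHO90, at 0.77, was just over the threshold and lost its call in 5 settings besides the 2-fold threshold. Of 28 iron and copper genes 4 were lower and 1 higher (median -0.16), among them ENB1, an importer of enterobactin-bound iron, at -1.06, CTR1, the copper transporter, at -0.85, and ISU2, a scaffold for iron-sulphur clusters, at 0.82 (0.716 and not called with a curve on external control spots).

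Pheromone genes of the alpha mating type rose. MF(ALPHA)1, which encodes most of the alpha factor pheromone, was at -0.08 and 0.01 at 15 min, against -1.84 and -1.85 at time 0. MF(ALPHA)2, the minor pheromone gene, was at -3.13 and -3.34 at 15 min, against -5.15 and -4.74 at time 0. The 37 °C culture was far below the reference in both, and after cooling the first had reached the reference level while the second had not. MF(ALPHA)1 rose by 1.81 (standard error 0.151, adjusted p = 4.82e-08) and MF(ALPHA)2 by 1.71 (standard error 0.121, adjusted p = 7.66e-09). SAG1, the alpha agglutinin, was at -2.14 and -2.04 at 15 min, against -3.12 and -3.05 at time 0, and rose by 0.99. STE3, the receptor for a factor, was at a change of 0.75, just under the threshold, so that 3 of 4 were called (median 1.35). Among all genes 2.67% were higher and 5.5% lower. None of the 7 a-specific genes was called, and their changes lay between -0.30 and 0.21.

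Few cell cycle genes were called at this time, to be set beside 5.5% lower and 2.67% higher among all genes. Of 63 late G1 genes 1 was lower and 0 higher (median -0.03). It was RFA3, a subunit of replication protein A, at -0.83, which was not called with a curve on external control spots (-0.74) or without array b of 15 min (-0.76). CLN1 and CLN2, the G1 cyclins, were at 0.07 and -0.08, CLN3 at 0.31 and RNR1, the large subunit of ribonucleotide reductase, at -0.02. CLN1 was at -0.12 with a curve on external control spots. None of 10 histone genes was called (median -0.34), with HTB2 at -0.71 and HHT2 at -0.59. Of 32 genes of the CLB2 cluster of G2/M, PHO3 alone was called (median 0.20), and of 34 M/G1 genes PST1, RME1 (-1.17) and DSE4 (-1.11) were lower (median -0.03).

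The genes of the main regulators of these programmes were not called. HSF1 was at -0.28, MSN2 at -0.34 and MSN4 at -0.48, all below the fold threshold, and SFP1, an activator of ribosome biogenesis genes, was at -0.003. Of 37 regulators 3 were lower and 1 higher (median -0.09), beside 5.5% lower and 2.67% higher among all genes. TPK2, a catalytic subunit of protein kinase A (-1.16), CYR1, adenylate cyclase (-1.01), and PDE1, a cAMP phosphodiesterase (-0.88), were those that fell. TOD6, a repressor of ribosome biogenesis genes, rose by 0.91.

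The comparison with 5 min asks which changes were under way and which had passed. Between 15 and 5 min 8 genes were higher (0.151%) and 48 lower (0.904%) at 15 min, at the same thresholds. Of the Hsf1 chaperones 8 of 27 were lower at 15 than at 5 min and 0 higher, such as HSP26 (-1.13). With a curve on external control spots HSP26 was the 1 chaperone gene called lower. Of the general stress genes 9 of 44 were lower and 0 higher, and 5 were lower with that curve, among them GPD1 (-1.29), HXK1 (-1.35) and PNC1 (-1.32). HSP78, HSP104 and TSL1 were not among them, with differences of -0.56, -0.59 and -0.28, and SIS1 was at -0.06. None of the 132 ribosome biogenesis genes was called between the 2 times in either direction.

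A second set was high at 5 min and not at 15 min. MTD1, of cytoplasmic one-carbon metabolism, was at 0.10 and -0.09 at 15 min, against 2.23 and 2.43 at 5 min. ADE17, of purine synthesis, was at 0.07 and 0.23 at 15 min, against 2.06 and 2.34 at 5 min. ADE2, also of purine synthesis, was at -0.09 and -0.11 at 15 min, against 1.51 and 1.68 at 5 min. The arrays of both times were far apart in each of these genes. Relative to 5 min, the change was -2.33 for MTD1 (adjusted p = 6.16e-11), -2.05 for ADE17 (adjusted p = 3.59e-09), -1.69 for ADE2 (adjusted p = 1.8e-11) and -1.59 for GCV1, of the glycine cleavage system (adjusted p = 3.34e-10). Relative to time 0, ADE17 was at 2.45 after 5 min, 0.40 after 15 min and 0.11 after 30 min. Of 36 nucleotide genes 4 were lower at 15 than at 5 min (ADE17, ADE2, ADE1 and ADE4, all of purine synthesis) and 2 were higher (URA2 and RNR1, the second of which was at 0.769 and lost its call in 8 of 15 settings). ALD4, mitochondrial aldehyde dehydrogenase, fell late: its change from time 0 was -0.20 after 5 min, -1.78 after 15 min and -1.74 after 30 min.

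The 8 genes that were higher at 15 than at 5 min were LEU1, URA2, MDH2, INO1, NCE102, OAC1, BAT1 and RNR1. LEU1, of leucine synthesis, was at -0.37 and -0.43 at 15 min, against -1.44 and -1.52 at 5 min, a difference of 1.08. URA2 was at 1.19 and 1.15 at 15 min, against 0.13 and 0.12 at 5 min, a difference of 1.04. MDH2 (0.83) was not called with median centring (0.753) or without array b of 15 min (0.747), INO1 (0.82) was not called without array b of 15 min (0.73) or of 5 min (0.705), and NCE102 (0.80), of the eisosome, lost its call in 5 of 15 settings, the 2-fold threshold not counted. OAC1 (0.773) and RNR1 (0.769) lost their calls in 8 of 15 settings and BAT1 (0.772) in 6, while LEU1 and URA2 were called in all 15. Without array b of 5 min 4 genes in all were called higher.

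The comparison of 30 with 15 min asks which genes went on changing. There were 18 genes higher (0.339%) and 13 lower (0.245%) after 30 min than after 15 min. OLE1 was at -1.26 and -1.13 at 30 min, against 1.31 and 1.47 at 15 min, the largest difference of this comparison, -2.59 (standard error 0.0790, adjusted p = 1.29e-11). IZH4, a membrane protein of zinc homeostasis, was at -0.24 and -0.23 at 30 min, against 1.28 and 1.33 at 15 min, a difference of -1.54 (adjusted p = 5.01e-11). Relative to time 0, OLE1 was at 1.60 after 5 min, 1.04 after 15 min, -1.54 after 30 min and -1.81 after 60 min. Its fitted change was thus already smaller at 15 than at 5 min, and its sign turned between 15 and 30 min. FAA4 (-1.08 between 30 and 15 min), IZH2 (-0.83) and MGA2 (-0.81), the last of which encodes an activator of OLE1, showed the same sequence of signs at lower size, and were picked out after their values were seen.

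Other genes went on falling. HSP12 was at -0.73 and -0.53 at 30 min, against 0.87 and 0.78 at 15 min, a difference of -1.45, and SSA1, a cytosolic Hsp70, differed by -1.27, HSP26 by -1.12 and GSC2, a glucan synthase, by -1.15. Of the Hsf1 chaperones 3 of 27 were lower at 30 than at 15 min and 0 higher, the third being HSC82 at -0.768, which lost its call in 6 of 15 settings. SSA1 and SSA2 are near-identical copies, so that the SSA1 probe may read both. At the other end GPD1 was at -1.46 and -1.73 at 30 min, against -3.08 and -3.27 at 15 min, a difference of 1.58 (adjusted p = 9.23e-09). GPD1 was thus lowest at 15 min of the 5 cooling times measured. The permease gene AGP1 (1.07), GDH1, glutamate dehydrogenase (1.03), CAR1, arginase (1.02), and SAG1 (1.02) were also higher at 30 min, SAG1 not with a curve on external control spots (1.001). In the respiratory chain CYT1 (0.90), RIP1 (0.87) and QCR2 (0.80), of complex III, were the 3 of 43 genes called higher at 30 min, with 0 lower, and 6 were called higher without array b of 30 min.

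**Figure D3:**
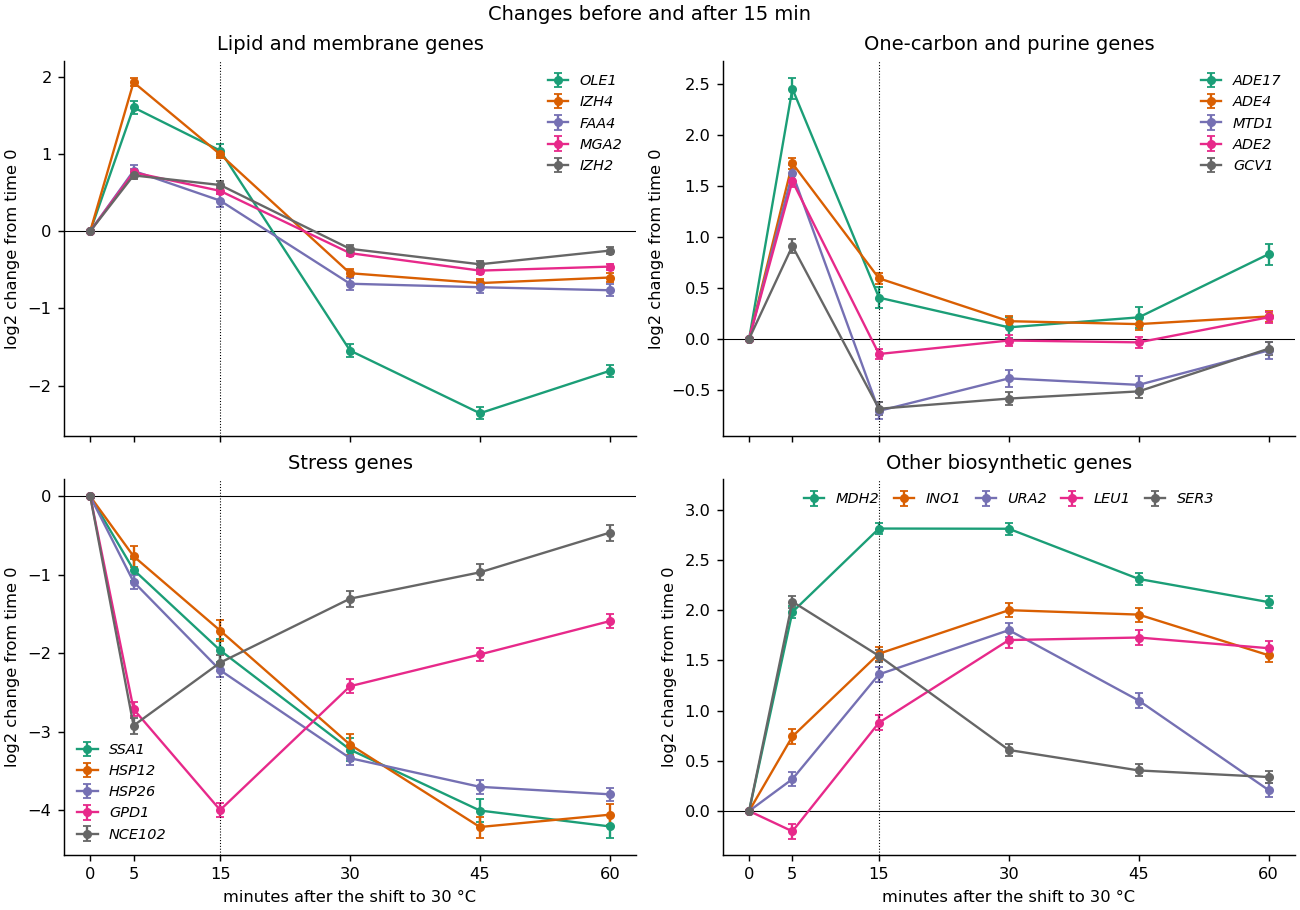
Change from time 0 (log2, vertical axis) against minutes after the shift to 30 °C for 20 genes in 4 panels; points are the fitted change with its standard error, 0 min is the baseline, and the dotted line marks 15 min. OLE1 and IZH4 passed below 0 between 15 and 30 min, MTD1 and ADE2 between 5 and 15 min, and GPD1 was lowest at 15 min.

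Side by side with the other cooling times, which share the time 0 arrays, the 15 min sample had the most genes called lower. There were 156 genes higher (2.94%) and 170 lower (3.2%) after 5 min, 142 higher and 292 lower after 15 min, 76 higher (1.43%) and 235 lower (4.42%) after 30 min, 56 higher (1.05%) and 220 lower (4.14%) after 45 min, and 45 higher (0.847%) and 184 lower (3.46%) after 60 min. The ribosome biogenesis genes had 82, 62, 26 and 0 of 132 members called higher at 5, 15, 30 and 60 min, with medians of 0.84, 0.75, 0.595 and 0.32. The Hsf1 chaperones had 19, 20, 19 and 21 of 27 members called lower at the same times, with medians of -1.065, -1.95, -2.13 and -2.22. The respiratory complexes and ATP synthase had 8, 11, 3 and 3 of 43 members called lower, and 1 called higher after 60 min, with medians of -0.49, -0.52, -0.05 and 0.19.

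The opposite shift was measured on other arrays, against the common reference. Across the 5311 genes the change at 15 min of cooling correlated with the level at 15 min of heat shock at Pearson's r = -0.687 and Spearman's rho = -0.609, which describes these arrays and is across genes, all measured against 1 reference. Of the 142 genes higher after cooling, 110 (77.5%) were lower after 15 min of heat shock, where 9.34% of all genes were lower, and these are 22.2% of the 496 genes lower in heat. Of the 292 genes lower after cooling, 196 (67.1%) were higher in heat, where 8.91% of all genes were higher, and these are 41.4% of the 473 genes higher in heat. PNC1 changed by -3.48 in cooling and was at 3.67 in heat, and UTP20 changed by 1.35 in cooling and was at -2.52 in heat. Ribosomal proteins, with a median of 0.17 in cooling and 0 of 125 called, had a median of -0.57 in heat and 47 called lower. Their cooling median was 0.59 with median centring and 0.68 with a curve on external control spots. The heat values were not computed under other scalings. Late G1 genes, with 1 of 63 called in cooling, had 22 called lower in heat. RNR1 was at -0.02 in cooling and -2.61 in heat.

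Some genes did not mirror. MDH2, the largest rise of cooling, was at -0.36 in heat and not called, and HXT2, with a rise of 1.74, was at 0.28. Of the falls, IDH2 (-2.38 in cooling) was at 0.34 in heat, ACO1 (-2.02) at -0.04 and PHO3 (-1.68) at -0.22, none of them called in heat. A further 10 genes, 3.42% of those lower after cooling, were lower in heat too. They were ERG25, CYC1, ERG3, PHO12, PDR5, YDR222W, ZEO1, ARG1, PGM1 and RFA3, and ERG3 had the lowest level of them in heat, at -2.09. NCE103, carbonic anhydrase, was the 1 gene higher in both, at 0.77 in cooling and 1.76 in heat. The difference between the shifts was not tested, since heat shock was set against the reference and cooling against its own time 0.

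**Figure D4:**
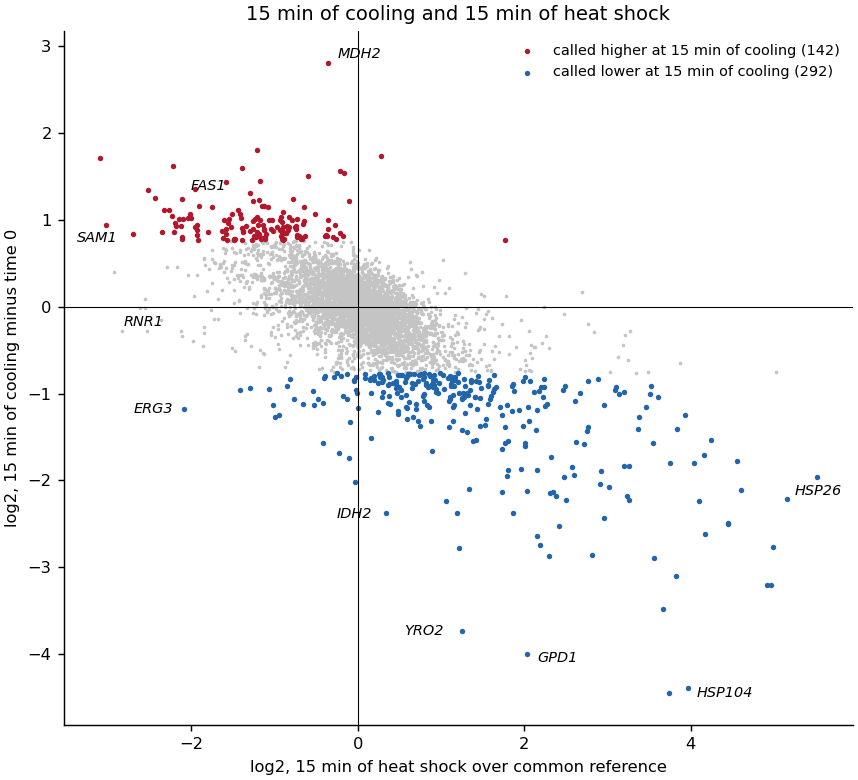
Change at 15 min of cooling minus time 0 (log2, vertical axis) against level at 15 min of heat shock over the common reference (log2, horizontal axis) for 5311 genes. Red points are called higher and blue points called lower at 15 min of cooling, and grey points are not called; most red points lie at the upper left and most blue points at the lower right, and MDH2, at 2.81 in cooling and -0.36 in heat, and ERG3, at -1.17 and -2.09, lie away from them.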

How the data were processed

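BY4742 cells before and after the shift from 37 °C to 30 °C, and from 30 °C to 37 °C, were compared on 2-colour spotted oligonucleotide arrays against a common reference. Per spot and channel, the deposited scanner tables hold a mean intensity and a background (15552 spots an array), with no background subtracted. The authors also deposited normalised log2 ratios, from a print-tip loess and a gene-specific dye correction (limma 2.12.0 is named in the submitters' processing notes), which were used as an alternative. On 3 of 22 arrays these ran opposite to the scanner signals and were turned. Deposited fold changes and p-values of the authors' own comparisons were not used. The dye of each sample was taken from the labels of its channels, which differ from the submitters' design text in which hybridisation came first. The lowest correlation between 2 arrays of the same dye was -0.406, between heat shock and cooling, which can oppose.

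Log2 ratios were computed with limma 3.58.1 in R 4.3.3 by print-tip loess (48 blocks, span 0.4, without control spots or spots above 32768 in the curve), and both spots of a probe were averaged. Of 6388 gene probes 5326 carry a symbol, for 5311 genes. Of these 5309 matched the gene table of assembly R64, used for names alone, and 58 symbols were updated. For the 15 genes with several probes the brightest was used. A model with 1 coefficient per group (11 groups, 22 arrays) and a dye term was fitted with lmFit and eBayes on 10 residual degrees of freedom, with Benjamini-Hochberg adjustment over 5326 probes. A gene was called when its adjusted p was under 0.05 and its change over 1.7-fold. The dye term is at the same time a replicate block, since all a arrays share one dye orientation. The fit and the calls were tested on simulated data.

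The design text describes the 2 arrays of a group as separate cultures, whereas the methods of the paper speak of biological replicates with a dye swap of each. If the 2 arrays are of 1 culture, the p-values measure technical spread alone. Precision is set by having 2 arrays a group.

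The 35 gene lists, the members and the named genes were chosen with earlier results of these data known. Named were the 15 largest rises and 15 largest falls at 15 min among called genes with the same direction on arrays a and b, 5 and 5 of each of the other contrasts, up to 3 called rises and falls per list (or the 2 largest changes where none was called), and a fixed set of 20 regulators and markers. Others were picked out after their values were seen. Of the 131 genes so named, 130 were above background (by 2.6 background SDs) on all 4 arrays, LEU2 being the exception. Alternatives were other within-array curves, background correction, spots, filters, thresholds and left-out arrays. Promoter motifs were not analysed here.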

Additional observations from a re-analysis of the deposited data

Results flagged for a closer look

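Opposite changes from time 0 at 2 neighbouring times, each at an adjusted p below 0.05, together with a called difference between the times, were seen in 16 genes. Between 15 and 5 min of cooling these were 8 genes. MTD1 (-2.33), ADE2 (-1.69), GCV1 (-1.59), ALD6 (-1.29), ZRT1 (-0.94), GLN1 (-0.93) and BIO3 (-0.92) were above time 0 after 5 min and below it after 15 min, and LEU1 (1.08) was below time 0 after 5 min and above it after 15 min. Between 30 and 15 min these were OLE1 (-2.59), IZH4 (-1.54), FAA4 (-1.08), IZH2 (-0.83) and MGA2 (-0.81), above time 0 after 15 min and below it after 30 min, and CAR1 (1.02), GDH1 (1.03) and AGP1 (1.07), with the opposite order. Values in brackets are log2 differences, later minus earlier time, in limma's test across all genes. No fold threshold was set on the changes from time 0, which share the time 0 arrays. Some of them were small: after 15 min ADE2 was at -0.149 and GDH1 at -0.183.

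Probes that carry no gene symbol were left out of all counts above. Of these 1062 probes 33 were lower and 5 higher at 15 min than at time 0 (3.58% called), against 8.17% of the genes with a symbol.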

How the results depend on the processing

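The counts at 15 min were 142 higher and 292 lower, and stayed within 1.5 times of these under every alternative apart from the thresholds. The genes called changed more than the counts. With median centring 128 were higher, 101 of them among the 142, and 314 were lower, 256 of them among the 292. With a curve on external control spots 177 were higher (113 among the 142) and 306 lower (245 among the 292). With an adjusted p alone 1723 genes were higher and 1829 lower, and with 2-fold in place of 1.7-fold 47 and 160. For 15 against 5 min (8 higher, 48 lower) an adjusted p alone gave 541 and 1005 and 2-fold gave 2 and 19. There the genes called higher were 5 with 1 loess curve per array, 4 with median centring and 4 with a curve on external control spots, which also gave 29 lower, 1 of them an Hsf1 chaperone in place of 8. For 30 against 15 min (18 higher, 13 lower) the thresholds gave 686 and 729, and 5 and 7.

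Leaving out 1 array at a time, with the array left in its group taken to vary like those of the other groups, the count higher at 15 min lay between 128 and 153, and lower between 276 and 317. Against 5 min it was 4 to 10 higher and 43 to 54 lower, and at 30 against 15 min 15 to 24 higher and 12 to 16 lower. Without the dye term, and so with no replicate block, the counts at 15 min were 142 and 292, against 5 min 8 and 47, and at 30 min 18 and 13.

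Signs turned in 5 named genes, none of them called at 15 min. With a curve on external controls CLN1 was at -0.117, TIP1 at 0.053 and TIR1 at 0.02. RNR1 was at 0.017 from the first spot alone, and SFP1 at 0.002 with normexp and at 0.043 from the second spot alone. With 1 array left out, CLN1 lay between -0.037 and 0.168, RNR1 between -0.044 and 0.009, and SFP1 between -0.069 and 0.063. The curve on external controls rests on 14 probes, and genes brighter than the brightest of them, at a log2 intensity of 10.79, take its end value. No scaling moved the median of all genes at 15 min by more than 0.06. A block on scan batch was not run, since the files give no scan date.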
